A study of Mus musculus with 10 samples.

Results

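Axon guidance ligands and receptors were described in 10 libraries of mouse striatal RNA. Members were the gene symbols of 4 ligand and receptor systems: semaphorins with plexins and neuropilins, Slits with Robos, netrins and netrin-Gs with Dcc and the Unc5 receptors, and ephrins with Eph receptors. Of 32531 gene symbols in the counts, 74 matched these names, and 60 of them had a mean of at least 1 CPM (read counts scaled to the library's total of gene reads) over the 10 libraries, as did 12806 symbols in all. The 14 below that level were Epha1, Epha2, Ephb4, Robo4, Efna1, Efna4, Ntn4, Ntn5, Sema3b, Sema3c, Sema3g, Sema6c, the antisense RNA Plxna4os1 and Unc5cl. Closest to the limit were Robo3 with a mean of 1.02 CPM and Sema3c with 0.831 CPM. Of the 60, Unc50 shares only the letters of its name with the Unc5 receptors, which leaves 59 guidance genes: 29 ligands and 30 receptors or co-receptors.

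The mice were adults of the line Drd2-EGFP/Rpl10a (CP101). A transgene under control of the dopamine D2 receptor gene puts EGFP on ribosomal protein L10a, so that translating ribosome affinity purification (TRAP) with antibodies against EGFP draws polysomes of D2 cells out of homogenized whole striatum. All groups carried this transgene, and besides indirect-pathway medium spiny neurons the D2 receptor gene is used by striatal cholinergic interneurons. Animals took either saline or cocaine by intravenous self-administration with short access, and the series holds immunopurified (IP) RNA of 3 saline samples (numbers 1, 2 and 4), IP RNA of 5 cocaine samples (numbers 1 to 5), the input RNA of 1 saline sample and the RNA left unbound from 1 cocaine sample. Whether each sample is a separate animal is not in the labels, and p-values here cover the spread among these samples alone. No source used here gives the animals' sex or exact age, or says whether animals were pooled.

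Semaphorins, Slits, netrins and ephrins are secreted or membrane-bound cues that attract or repel growing axons. Plexins, neuropilins, Robo receptors, Dcc, Unc5 receptors and Eph tyrosine kinases are the proteins on the axon that read them. In the adult brain many of these genes stay on and act on synapses, dendritic spines and glia. In the developing striatum EphA receptors and ephrin-A ligands take part in separating striosome from matrix cells, and Sema3e with its receptor Plxnd1 is known for limiting thalamic synapses on direct-pathway medium spiny neurons.

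Each IP library had 22975667 to 31631137 gene reads, the input 18408782 and the unbound RNA 20882691, so that 3 reads equalled 0.0948 to 0.163 CPM. Marker genes of the labelled cells were present: all IP libraries held 2-fold or more of 7 of 7 indirect-pathway (D2) neuron markers relative to their reference, and Drd2 itself stood at 2429, 2695 and 2218 CPM in the saline IP libraries against 358 in the input. Of 8 direct-pathway markers, 8 were lower than in the input and 7 lower than in the unbound RNA. The 10 oligodendrocyte markers summed to 233 to 540 CPM in the saline IP and 241 to 510 in the cocaine IP libraries, against 5250 in the input and 5579 in the unbound RNA. Of 10 astrocyte markers 9 were lower in both comparisons, and none of the 5 measured cholinergic interneuron markers was called in either, while Gbx2, also on that list, was at 0 in all IP libraries. Of 7 measured GABA interneuron markers 6 were lower than the input and 5 lower than the unbound RNA. Of 6 measured pallial glutamatergic neuron markers 6 were lower in both comparisons. The glial, direct-pathway and these other neuronal markers were thus low in the same libraries as the lower members. Their part in the members' ratios was not tested. The IP libraries were run on lanes 4, 6 and 7 and both reference libraries on lane 1, so that lane and RNA fraction cannot be told apart. Reads outside annotated features made up 12.9% to 14.4% of the IP libraries and 25.5% and 27.4% of the references. Whether counting used strand is not given in the sources used here, and exons of Nrp1, Ntn3, Ntng2, Plxnc1 and Sema4a overlap another gene model on their own strand, and those of Efna3, Epha6, Epha10, Ephb1, Ntn3, Plxna1, Plxna4, Plxnb1, Sema4c, Unc5a and Unc5c one on the other, so that their values are uncertain.

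The first comparison asks which guidance genes the D2-cell ribosomes carry more or less of than the tissue. It set each saline IP library against the saline input, and a parallel one set each cocaine IP library against the unbound cocaine RNA. With 1 reference library each, these are measured ratios, and no test of them is reported. They are log2 ratios of CPM plus 1 after TMM scaling (trimmed mean of M-values) over all libraries, so that folds of genes near 1 CPM are understated. A gene is called lower or higher here when every IP library was at least 2-fold from the reference. More genes of the list were lower than higher: 16 of 60 were lower than the input (11.3% of all 12806 genes were), 10 of 60 were lower than the unbound RNA (10.5% of all genes), and the same 10 made up the overlap (9.25% of all genes were lower in both). No member was higher than the input in all 3 saline IP libraries (1.44% of all genes) or higher than the unbound RNA in all 5 cocaine IP libraries (3.69%), and so 0 were higher in both (0.921% of all genes). Members called lower made up 26.7% of the 60 against the input and 16.7% against the unbound RNA. Of the 60, 6 had an IP mean under 1 CPM (by library size) and reached the level limit only through the references: Plxna3, Robo3 and Slit1, which were not called, and Ephb3, Plxnb3 and Sema3d, which are counted as lower in both. Members that pass this way have a lower mean in the IP than in the references by construction.

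The median log2 ratio of the 60 members was -0.39 against the input (SD of the library medians 0.16, n = 3) beside 0.11 for all genes, and -0.13 against the unbound RNA (SD 0.24, n = 5) beside 0.16 (all genes). Of the 60, 39 had a mean ratio below 0 in the first (65%, against 43.8% of all genes) and 34 in the second (56.7%, against 41.7%). The medians differed by level, taken as the mean over the 10 libraries, of which 8 were IP. Members low in the IP thus fall to a lower level by construction, and the difference is no result about level. Sema6a, at 46.4 CPM in the input, is among the members from 5 to 20 CPM. The 25 members averaging 20 CPM or more had medians of 0.22 and 0.50, with 17 and 18 above 0. Medians were -1.07 and -0.67 for the 12 members from 5 to 20 CPM, with 1 and 3 above 0. For the 23 members from 1 to 5 CPM they were -0.69 and -0.37, with 3 and 5 above 0.

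Some calls and signs turned on a library or on the scaling. Without cocaine IP 1, 6 symbols were at least 2-fold higher than the unbound RNA in the other 4 libraries, namely Plxnd1, Sema3e, Sema6b, Slit3, Unc5a and Unc50 (5.4% of all genes). With library size alone in place of TMM, the median of all genes moved from 0.11 to -0.082 against the input and from 0.16 to -0.019 against the unbound RNA, and the members' medians to -0.55 and -0.28. Of all genes, 247 were then higher and 1549 lower than the unbound RNA, where TMM gave 472 and 1349. Of the members, 8 lay above the reference in all 8 IP libraries under TMM and 4 under library size: Plxnd1, Sema3a, Sema3e and Sema7a. The mean ratio to the input changed sign for Epha6, Ephb1, Robo1, Sema3f and Unc5d, and that to the unbound RNA for Efna2, Ephb1, Plxna2 and Slit2. Below the reference in all 8 lay 23 members under TMM and 27 under library size. The shares of all genes above or below in all 8 are not given here, so these counts have no background to be set against. In bulk samples such as these, fewer cells of a type and less RNA per cell cannot be told apart.

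**Figure D1:**
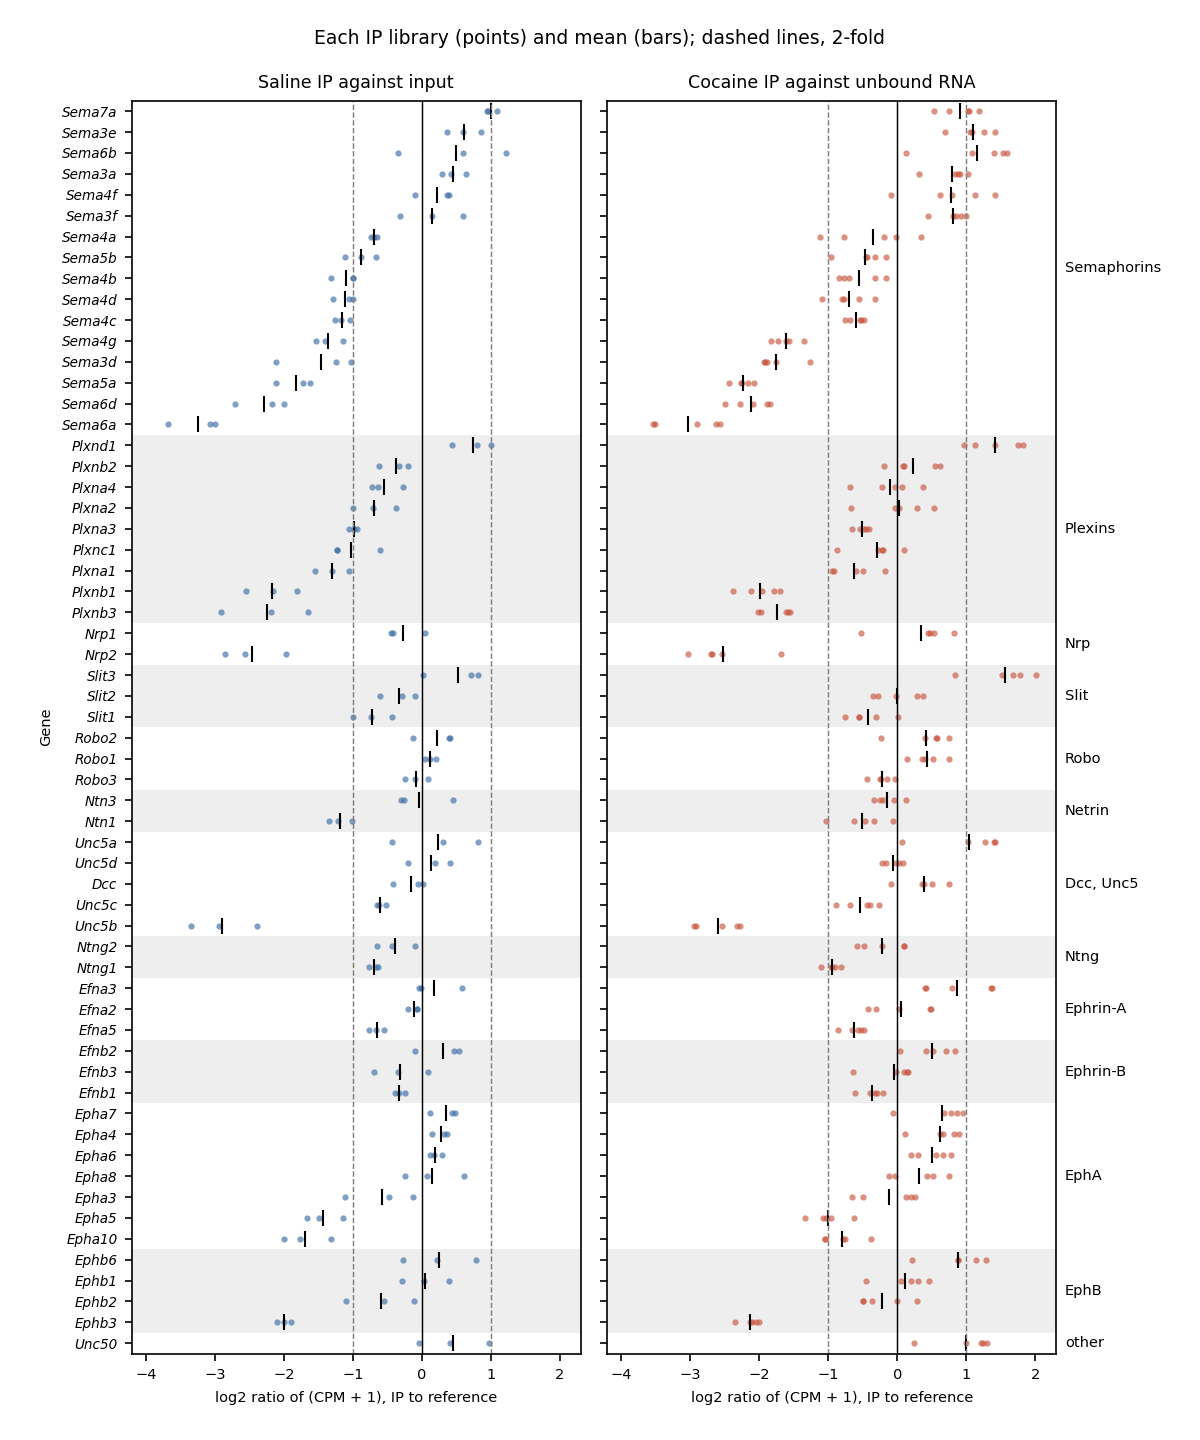
Log2 ratio of CPM plus 1 of each IP library to its reference for the 60 members, grouped by role; points are libraries (3 saline IP against the input, left; 5 cocaine IP against the unbound RNA, right), bars their means and dashed lines 2-fold. Sema6a, Unc5b and Nrp2 lie far left in both panels and Sema7a at about 2-fold to the right. Most Eph receptors and ephrins have means between the dashed lines.

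The ends of this range were Sema7a and Plxnd1, with the highest mean ratios to the input, and Sema6a, Unc5b and Nrp2 with the lowest. Promoter sequences are shown for 4 of these, 2 from each end, chosen after the values were seen, to show what kind of promoter stands on either side. Each is the 250 bases before the start site in RefSeq on GRCm38.p6, written along the gene's strand, at chr9:57939862-57940111 (plus strand) for Sema7a, chr6:115995006-115995255 (minus) for Plxnd1, chr10:60831582-60831831 (minus) for Unc5b and chr1:62703067-62703316 (plus) for Nrp2. Capitals mark GC boxes (GGGCGG on either strand).
Sema7a: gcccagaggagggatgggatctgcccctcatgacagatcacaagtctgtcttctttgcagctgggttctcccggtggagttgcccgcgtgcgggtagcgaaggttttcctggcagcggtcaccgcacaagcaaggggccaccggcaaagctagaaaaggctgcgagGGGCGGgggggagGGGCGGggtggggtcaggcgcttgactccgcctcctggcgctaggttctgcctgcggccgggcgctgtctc
Plxnd1: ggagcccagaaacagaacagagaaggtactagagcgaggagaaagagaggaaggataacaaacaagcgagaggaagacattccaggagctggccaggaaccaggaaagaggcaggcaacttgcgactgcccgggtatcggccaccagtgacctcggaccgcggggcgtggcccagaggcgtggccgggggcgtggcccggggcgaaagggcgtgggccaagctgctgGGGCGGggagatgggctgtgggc
Unc5b: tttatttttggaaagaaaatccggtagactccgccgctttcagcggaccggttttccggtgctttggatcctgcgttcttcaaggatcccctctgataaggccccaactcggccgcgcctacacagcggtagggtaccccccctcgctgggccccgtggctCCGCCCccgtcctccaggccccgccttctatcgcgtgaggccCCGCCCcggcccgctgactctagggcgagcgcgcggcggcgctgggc
Nrp2: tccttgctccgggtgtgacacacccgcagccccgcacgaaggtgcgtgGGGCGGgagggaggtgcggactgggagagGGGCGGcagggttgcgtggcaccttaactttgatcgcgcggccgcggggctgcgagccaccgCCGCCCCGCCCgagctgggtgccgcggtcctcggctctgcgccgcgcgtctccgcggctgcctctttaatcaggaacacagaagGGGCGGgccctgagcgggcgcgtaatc
These 4 stretches were 64.8% to 72.4% G and C, and each held GC boxes. RefSeq entries of 300 bases (250 before to 50 after the start) were found for 51 of the 60 members, with 65 entries in all. A GC box stood in 46 of the 65 (70.8%) against 35.7% of all 32851 entries, and a TATA box (TATAAA) in 2 (3.08%) against 13.6%. The cyclic AMP response element TGACGTCA was in 0 of 65 (1.79% of all), and the SOX core AACAAT in 3 (4.62% against 10.7%). Both strands were searched, and none of these motifs contains another. GC boxes thus stood upstream of members from both ends of the range.

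Among the 16 semaphorins, 6 had a mean log2 ratio to the input above 0 and the rest one below 0. Semaphorins abundant in the input lay on both sides, such as Sema7a at 38.0 CPM above and Sema6d at 81.1 CPM below. Of the 16, 7 were lower than the input and 5 lower than the unbound RNA. Sema7a (chr9:57940112-57962865 in GRCm38, the build of all positions given here), a lipid-anchored semaphorin that signals through integrins and Plxnc1, measured 73.7, 81.8 and 75.1 CPM in saline IP 1, 2 and 4 against 38.0 in the input (95% counting interval 35.4 to 40.7). It measured 58.7, 92.7, 83.1, 68.8 and 84.3 CPM in cocaine IP 1 to 5 against 40.4 in the unbound RNA. Every IP library lay above its reference, and the mean log2 ratios were 0.998 ± 0.079 (SD, n = 3) and 0.90 ± 0.26 (SD, n = 5, as in the paired ratios of the other genes). Sema7a fell short of the call because saline IP 1 and 4 and cocaine IP 1 and 4 lay under 2-fold.

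Sema3e, the secreted ligand of Plxnd1, measured 47.2, 55.7 and 66.9 CPM in the saline IP against 36.5 in the input, and 52.5, 67.4, 87.2, 68.9 and 78.5 in the cocaine IP against 32.1 in the unbound RNA. All 8 IP libraries lay above their reference, by mean log2 ratios of 0.61 ± 0.25 and 1.10 ± 0.27. Sema3a, a secreted repellent that binds neuropilin 1, behaved alike in direction with 0.45 ± 0.18 and 0.79 ± 0.28. Sema6b, a transmembrane semaphorin, varied most among libraries: its saline IP values of 23.5, 71.3 and 45.8 CPM lay on both sides of the input value of 30.1, and its cocaine IP values of 22.4, 55.2, 60.9, 44.1 and 63.3 were all above the unbound value of 20.3. The lowest Sema6b values were those of saline IP 1 and cocaine IP 1.

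Sema6a (chr18:47235598-47368870), a transmembrane semaphorin read by plexins A2 and A4, was the lowest member. It measured 4.63, 2.72 and 4.93 CPM in the saline IP against 46.4 in the input (interval 43.5 to 49.4), a mean log2 ratio of -3.25 ± 0.37 or 9.50-fold lower. In the cocaine IP it measured 5.05, 2.94, 2.87, 6.58 and 6.29 CPM against 44.1 in the unbound RNA, a ratio of -3.03 ± 0.47. The IP values were thus far below both references, with no overlap. Sema6d, its transmembrane relative that uses Plxna1, measured 17.2, 11.6 and 19.6 CPM in the saline IP against 81.1 in the input, and 17.2, 14.7, 22.9, 19.8 and 23.6 in the cocaine IP against 87.4 in the unbound RNA, with mean ratios of -2.29 ± 0.37 and -2.12 ± 0.27. Sema5a, a transmembrane semaphorin with thrombospondin repeats, measured 9.03, 6.62 and 9.74 CPM in the saline IP against 32.0 in the input, and 8.98, 9.13, 7.83, 10.4 and 9.72 in the cocaine IP against 47.0 in the unbound RNA, with ratios of -1.82 ± 0.26 and -2.24 ± 0.14. Sema6a, Sema6d and Sema5a were thus lower in every IP library.

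Sema4g and the secreted Sema3d were the other semaphorins lower in both comparisons, at ratios of -1.36 ± 0.20 and -1.62 ± 0.18 for Sema4g and -1.46 ± 0.57 and -1.75 ± 0.28 for Sema3d. Sema3d was near the limit of counting, with 1.27, 0.0716 and 0.955 CPM in the saline IP libraries, of which the second is below 3 reads. Sema4c and Sema4d, transmembrane semaphorins of which Sema4d binds Plxnb1, were called lower against the input with -1.16 ± 0.11 and -1.12 ± 0.15, and had -0.60 ± 0.12 and -0.71 ± 0.29 against the unbound RNA, without a call. Sema4d stood just inside the limit, its nearest library at -1.004, and was not called without saline IP 1 or without saline IP 4; Sema4b stood just outside, its nearest at -0.99. The remaining semaphorins, Sema3f, Sema4a, Sema4f and Sema5b, were called in neither comparison, with ratios to the input of 0.14 ± 0.45, -0.69 ± 0.041, 0.22 ± 0.27 and -0.88 ± 0.23.

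Among the 9 plexins, the signalling receptors of semaphorins, Plxnd1 had the highest ratios. Plxnd1 (chr6:115954811-115995005) measured 36.5, 54.5 and 47.2 CPM in the saline IP against 26.7 in the input (interval 24.5 to 29.0), and 26.9, 47.0, 49.3, 37.0 and 30.2 in the cocaine IP against 13.3 in the unbound RNA (interval 11.8 to 14.9). All 8 IP libraries exceeded their reference, with mean log2 ratios of 0.75 ± 0.29 and 1.41 ± 0.37. Against the unbound RNA 4 of 5 libraries passed 2-fold and the fifth, cocaine IP 1, had a ratio of 0.96.

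Plxnb1 and Plxnb3, receptors of class 4 and class 5 semaphorins, were the 2 plexins lower in both comparisons. Plxnb1 measured 3.01, 4.26 and 5.69 CPM against 22.3 in the input and 2.18, 3.24, 3.80, 4.08 and 2.81 against 15.5 in the unbound RNA, with ratios of -2.17 ± 0.37 and -1.99 ± 0.27. Plxnb3 measured 1.39, 0 and 0.649 CPM against 6.48, with no read in saline IP 2, and 0.811, 0.377, 0.330, 0.848 and 0.758 in the cocaine IP against 4.40. Every IP value of both genes was below its reference. Plxna1, which partners neuropilins, was called lower against the input at -1.30 ± 0.25 and had -0.63 ± 0.32 against the unbound RNA. Plxna2 and Plxna4, the most abundant type A plexins here, were below the input in all 3 saline IP libraries (-0.70 ± 0.32 and -0.54 ± 0.24) without a call, and lay on both sides of the unbound RNA (0.026 ± 0.45 and -0.099 ± 0.39). Plxna3, Plxnb2 and Plxnc1, the last a receptor of Sema7a, were called in neither comparison, with ratios to the input of -0.99 ± 0.062, -0.38 ± 0.22 and -1.02 ± 0.36, of which Plxna3 missed the limit in saline IP 2 and 4 and Plxnc1 in saline IP 4.

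The neuropilins, co-receptors for secreted semaphorins, differed from each other. Nrp2 (chr1:62703285-62818695) measured 1.84, 0.537 and 0.878 CPM in the saline IP against 10.1 in the input (interval 8.79 to 11.6), and 0.561, 1.21, 0.991, 0.969 and 2.99 in the cocaine IP against 11.8 in the unbound RNA. It was lower in every library, with mean ratios of -2.46 ± 0.45 and -2.53 ± 0.51. Nrp1 measured 5.39, 7.98 and 5.54 CPM in the saline IP against 7.69 in the input, and 5.21, 11.8, 14.8, 11.3 and 11.1 in the cocaine IP against 7.90 in the unbound RNA, on both sides of its references. Within each library, where scaling does not enter, Nrp1 made up 87.1% ± 8.45 (SD, n = 3) of neuropilin RNA per kb of exon in the saline IP and 90.8% ± 5.18 (n = 5) in the cocaine IP, against 47.9% in the input and 44.7% in the unbound RNA.

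Of the 3 Slits and 3 Robo receptors none was called. Slit3, a secreted repellent, measured 27.7, 45.5 and 48.9 CPM in the saline IP against 27.3 in the input, where saline IP 1 was level with the input. In the cocaine IP it measured 23.9, 43.3, 54.9, 46.5 and 38.6 CPM against 12.9 in the unbound RNA, and all 5 libraries were above it, 4 of them beyond 2-fold, with a mean ratio of 1.56 ± 0.44. Slit1 and Slit2 had ratios of -0.72 ± 0.28 and -0.33 ± 0.25 to the input. Robo1 and Robo2, the main neuronal Slit receptors, were near the tissue level, where the sign of the Robo1 ratio depended on the scaling: Robo2 measured 114, 165 and 166 CPM against 125 in the input and Robo1 65.3, 68.2 and 72.4 against 62.9. Robo3, a divergent family member of commissural axons, measured 0.565 to 1.46 CPM over the IP libraries.

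Netrin 1, the founding attractant of the netrin system, was lower than the input and its receptors went different ways. Ntn1 measured 3.01, 2.50 and 2.18 CPM against 7.11 in the input, a ratio of -1.19 ± 0.17 that was not called without saline IP 4, and 4.62, 2.79, 3.27, 3.63 and 1.87 against 4.88 in the unbound RNA, a ratio of -0.51 ± 0.36 without a call. Dcc, the attractive netrin receptor, measured 67.1, 86.6 and 91.2 CPM against 90.3 in the input and 62.0, 85.7, 112, 94.2 and 87.4 against 66.4 in the unbound RNA. The Dcc values of the IP libraries lay on both sides of each reference, and the ratios were -0.16 ± 0.23 and 0.38 ± 0.31. Ntn3, the other netrin described, had ratios of -0.038 ± 0.42 and -0.15 ± 0.18.

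Of the 4 Unc5 receptors, which mediate repulsion by netrin, Unc5b was called lower in both comparisons. Unc5b (chr10:60762593-60831581) measured 4.09, 1.61 and 2.44 CPM in the saline IP against 25.5 in the input (interval 23.4 to 27.8), 7.42-fold lower, and 3.34, 1.77, 1.72, 2.62 and 3.21 in the cocaine IP against 19.98 in the unbound RNA, 6.06-fold lower. Unc5a lay on both sides of the input with 16.4, 40.2 and 28.1 CPM against 22.4, and above the unbound RNA in all 5 cocaine IP libraries (4 with library size alone) with 12.8, 33.6, 34.0, 30.6 and 25.6 against 12.1. Its lowest values were in saline IP 1 and cocaine IP 1, the libraries that were also low for Sema6b. Unc5d and Unc5c had ratios of 0.14 ± 0.31 and -0.60 ± 0.068 to the input. The netrin-Gs, lipid-anchored synaptic relatives of netrins, were below the tissue level without a call: Ntng1 measured 10.3, 10.1 and 9.36 CPM in the saline IP against 16.6 in the input, and 10.2, 11.8, 11.5, 12.6 and 11.3 in the cocaine IP against 23.0 in the unbound RNA, below its reference in all 8 libraries. Ntng2 had ratios of -0.39 ± 0.27 and -0.22 ± 0.32.

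Most Eph receptors had mean ratios within 2-fold of the input, and Ephb3, Epha5 and Epha10 were below that. Epha4, an EphA receptor that binds ephrins of both classes, measured 198, 231 and 224 CPM in the saline IP against 179 in the input and 172, 244, 297, 253 and 281 in the cocaine IP against 159 in the unbound RNA. All 8 libraries exceeded their reference (6 of 8 with library size alone), by mean log2 ratios of 0.27 ± 0.12 and 0.62 ± 0.31. Epha7 was similar with 0.35 ± 0.20 and 0.65 ± 0.41, although cocaine IP 1 at 73.6 CPM was under the unbound value of 76.6. Epha5, a receptor of ephrin-A ligands, measured 14.6, 16.5 and 21.3 CPM against 48.4 in the input and 16.5, 20.8, 27.7, 20.02 and 21.9 against 43.5 in the unbound RNA. It was called against the input (-1.43 ± 0.26) and not against the unbound RNA (-1.01 ± 0.26), where 2 of its 5 libraries were under 2-fold.

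Ephb3 measured 0.317, 0.143 and 0.229 CPM in the saline IP against 3.92 in the input and 0.312, 0.264, 0.0661, 0.242 and 0.357 in the cocaine IP against 4.44 in the unbound RNA. Its ratios of -2.002 ± 0.10 and -2.13 ± 0.13 rest on few reads in the IP libraries, where 3 reads equal 0.0948 to 0.131 CPM, and cocaine IP 3 was below that. Epha10, an Eph protein without kinase activity, measured 1.27, 2.08 and 0.917 CPM in the saline IP against 6.68 in the input and was called there (-1.69 ± 0.35). Ephb1, a receptor of ephrin-B ligands, measured 44.6, 71.7 and 55.7 CPM against 54.6 and was on both sides of it. Epha3, Epha6, Epha8, Ephb2 and Ephb6, of which Ephb6 also lacks kinase activity, were called in neither comparison, with ratios to the input of -0.57 ± 0.51, 0.20 ± 0.091, 0.15 ± 0.43, -0.59 ± 0.49 and 0.24 ± 0.53.

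Of the 6 ephrins, the membrane-bound ligands of Eph receptors, none was called. Efnb3 measured 65.2, 113 and 83.6 CPM against 106, Efnb2 85.3, 134 and 127 against 91.7, and Efna5 16.9, 18.5 and 15.7 against 27.3. Efna5, a lipid-anchored ephrin, was below its reference in all 8 libraries (-0.66 ± 0.11 and -0.62 ± 0.15), while Efnb2 and Efnb3 lay on both sides of the input (with library size alone, Efnb3 was below it in all 3 libraries). Efna2, Efna3 and Efnb1 had ratios of -0.12 ± 0.069, 0.17 ± 0.35 and -0.32 ± 0.071 to the input.

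Levels can be set beside each other between genes only roughly, when divided by exon length. The length used joins all annotated exons of a gene and need not be that of the transcript present. It was 25.4 kb for Slit2 and 6.07 kb for Slit3, so ranks and family shares depend on it. In TMM-scaled CPM per kb of exon, the highest guidance genes in the saline IP libraries were Efnb3 at 27.4 ± 7.56, Epha4 at 27.0 ± 2.15, Sema7a at 23.3 ± 1.31 and Efnb2 at 16.9 ± 3.86 (SD, n = 3). The range of Efnb3 over its 3 libraries covered those of Epha4 and Sema7a, and the ranges of Epha4 and Sema7a overlapped. Sema6b at 11.8 ± 6.03 and Epha7 at 11.4 ± 1.51 followed, then Robo2 at 8.73 ± 1.74 and Ephb1 at 8.19 ± 1.95, again with overlapping spreads. A plexin first appeared with Plxnd1 at 6.31 ± 1.24, beside Slit3 at 6.71 ± 1.88, Unc5a at 6.77 ± 2.85, Dcc at 6.20 ± 0.973 and Sema3e at 6.10 ± 1.07. In the input the same genes per kb stood at 33.3 for Efnb3, 22.3 for Epha4, 11.5 for Sema7a, 13.4 for Efnb2 and 3.66 for Plxnd1. Plxnd1 was the 12th of 60 symbols in the saline IP order and the 23rd in the input order, and Sema6d, 8th in the input, was 25th in the saline IP. The lowest per kb in the saline IP was Ephb3 at 0.0346 ± 0.0131.

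**Figure D2:**
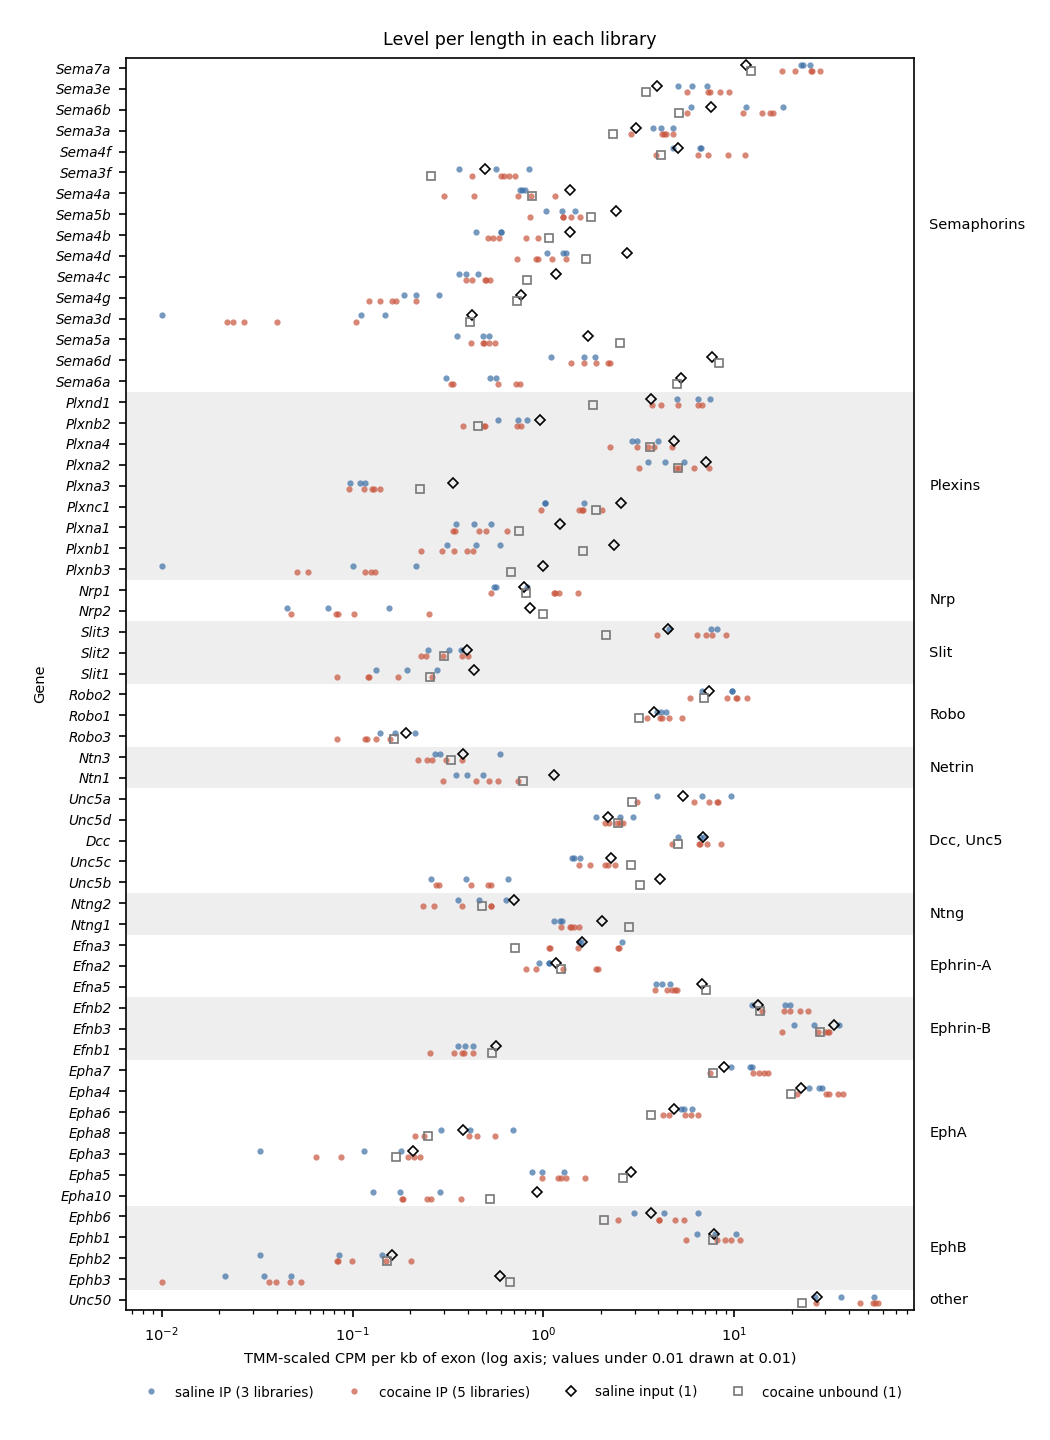
TMM-scaled CPM per kb of exon (log axis) of each member in each of the 10 libraries; filled points are saline IP (3) and cocaine IP (5) libraries, the diamond is the saline input and the square the cocaine unbound RNA. Efnb3, Epha4 and Sema7a have the highest IP means among the guidance genes and Ephb3 the lowest, although Sema3d or Plxnb3 lies below Ephb3 in single IP libraries.

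The share of each gene within its family does not depend on scaling between libraries, although it depends on the exon lengths used. Sema7a made up 40.0% ± 4.63 (SD, n = 3) of semaphorin RNA per kb in the saline IP and 37.7% ± 3.95 (n = 5) in the cocaine IP, against 20.4% in the input and 24.2% in the unbound RNA. Sema6d made up 2.66% ± 0.889 and 3.02% ± 0.654 against 13.6% and 16.3%, and Sema6a 0.818% ± 0.314 and 0.912% ± 0.429 against 9.34% and 9.91%. Sema7a thus took a larger share of semaphorin RNA in all 8 IP libraries than in either reference, and Sema6d and Sema6a smaller ones, while the family's sum was 59.0 ± 8.80 CPM per kb in the saline IP and 56.6 in the input.

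Plxnd1 made up 36.9% ± 4.67 of plexin RNA per kb in the saline IP and 30.5% ± 3.89 in the cocaine IP, against 15.2% in the input and 11.3% in the unbound RNA. Unc5b made up 2.80% ± 1.98 and 2.43% ± 1.24 of netrin receptor RNA against 19.7% and 19.4%. Epha4 was the main EphA receptor in every library, at 59.1% ± 1.20 and 60.9% ± 1.31 against 55.2% and 56.8%, while Epha5 made up 2.28% ± 0.327 and 2.53% ± 0.248 against 7.17% and 7.48%. Slit3 was the main Slit in every library, with 92.6% ± 2.62 in the saline IP and 84.4% in the input. The references are single libraries, so these shares carry no test.

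**Figure D3:**
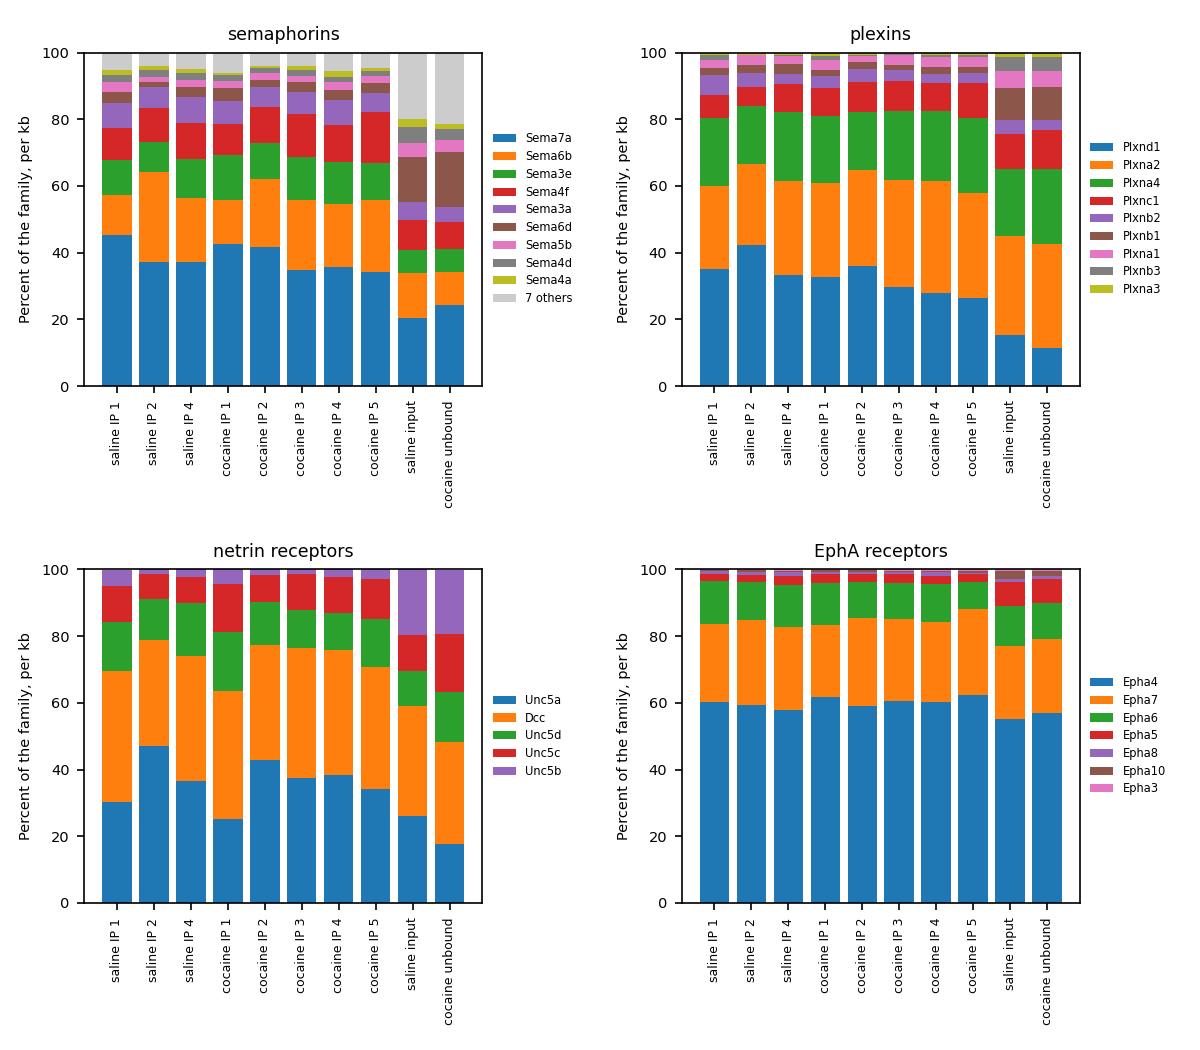
Share of each gene in its family's RNA per kb of exon (percent, y axis) in each of the 10 libraries (x axis) for semaphorins, plexins, netrin receptors and EphA receptors; each bar adds to 100%. Sema7a and Plxnd1 take larger shares in the 8 IP libraries than in the input and unbound libraries, and Sema6d, Plxnb1, Unc5b and Epha5 smaller ones.

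Genes that act with these ligands and receptors were taken from a list of 86 partners, namely co-receptors, adaptors, small GTPases and their regulators. Of these 85 were in the counts and 79 had a mean of at least 1 CPM. None of the 79 was higher and 9 were lower than the input (1.44% and 11.3% of all genes), while 2 were higher and 10 lower than the unbound RNA (3.69% and 10.5%), 8 of them lower in both. The median log2 ratios of the partners were 0.088 and 0.095, beside 0.11 and 0.16 for all genes. Lower in both were the netrin co-receptor Dscam (-2.08 ± 0.54 against the input), the hedgehog and netrin-linked receptor Cdon (-1.56 ± 0.22), the adhesion protein Cntn2 (-2.05 ± 0.21), the actin-binding Ablim1 (-1.45 ± 0.27), the plexin-linked exchange factor Farp1 (-2.53 ± 0.19), the Rac activator Dock1 (-1.97 ± 0.40), the cytoskeletal kinase Rock1 (-1.53 ± 0.27) and Dip2a (-1.72 ± 0.55). The adhesion protein Chl1 was lower than the input (-1.58 ± 0.19), and the actin regulator Enah and the collapsin response mediator Dpysl3 were lower than the unbound RNA (-1.49 ± 0.22 and -1.42 ± 0.26). Higher than the unbound RNA were the kinase Cdk5 (1.10 ± 0.10) and Maged1, an Unc5 receptor-binding protein (1.24 ± 0.19). Both stood just inside the limit, neither was called with library size alone or DESeq2 size factors, and Cdk5 was not called without cocaine IP 1, 2, 3 or 4.

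The main question of the design is what cocaine intake changed in the D2-cell ribosome-bound RNA. Among guidance genes no difference passed: of 59 members tested (Ephb3 was filtered as too low), 0 had an adjusted p under 0.05 in edgeR's quasi-likelihood test over the 8 IP libraries, as 0 of all 13800 genes did (0%). The smallest adjusted p of a member was 0.9998. At an unadjusted p under 0.05 there were 2 members (3.39% of 59) against 295 of all genes (2.14%), and DESeq2 gave 0 adjusted and 2 unadjusted calls among the members. Without cocaine IP 1 the unadjusted count was 9 members (15.3%, against 4.40% of all genes). It was 4 members (6.78%) without saline IP 2, against 3.26% of all genes, and 4 without saline IP 4, against 2.79%. There were 0 adjusted calls each time. For no member did the 3 saline and the 5 cocaine values fail to overlap (2.31% of all genes). The median log2 fold change was 0.078, beside 0.0063 for all genes, with 37 members positive and 22 negative. It was 0.0047 without saline IP 1, 0.0057 without cocaine IP 3, 0.051 without cocaine IP 2 and 0.16 without saline IP 2 or without cocaine IP 1. The precision was limited: the median standard error was 0.248 for members and 0.179 for all genes, and for 45 of the 59 the 95% interval lay within a doubling in either direction.

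Unc5c, a repulsive netrin receptor, had the smallest unadjusted p. It measured 27.0, 29.7 and 27.7 CPM in saline IP 1, 2 and 4 and 33.6, 29.2, 45.2, 40.3 and 41.5 in cocaine IP 1 to 5, with a log2 fold change of 0.44 (SE 0.15, edgeR unadjusted p = 0.0112, adjusted p = 0.9998). Of the cocaine values, 4 exceeded every saline value and cocaine IP 2 lay among them. The cocaine libraries of lane 4 measured 40.3 to 45.2 CPM and those of lane 6 measured 29.2 and 33.6. With lane as a covariate the estimate was 0.21 (SE 0.20). It rests on the libraries of lane 6 alone, since lanes 4 and 7 each held a single treatment.

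Nrp1, the neuropilin that binds Sema3a, measured 5.39, 7.98 and 5.54 CPM in the saline IP and 5.21, 11.8, 14.8, 11.3 and 11.1 in the cocaine IP libraries. Its log2 fold change was 0.79 (SE 0.28, 95% interval 0.18 to 1.40, edgeR unadjusted p = 0.0160, adjusted p = 0.9998). Cocaine IP 1 was below all saline values and the other 4 above them, so the groups overlapped through 1 library. Next by p were Sema3e at 0.34 (SE 0.16), Sema4g at -0.49 (SE 0.28), Epha5 at 0.30 (SE 0.18) and Ntng1 at 0.22 (SE 0.13), none past the unadjusted threshold. With lane as a covariate the estimates of Sema3e and Epha5, again from lane 6 alone, changed sign, to -0.14 and -0.17. Among genes far from the tissue level, the log2 differences were Sema7a 0.021 (SE 0.14, interval -0.29 to 0.33), Plxnd1 -0.26 (SE 0.20, interval -0.70 to 0.18), Sema6a 0.22 (SE 0.32) and Unc5b -0.099 (SE 0.34).

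By role, the fold changes ran from -1.07 to 0.36 for semaphorins, where 11 of 16 were positive, and from -0.41 to 0.35 for plexins, where 5 of 9 were positive. Of the EphA receptors 5 of 7 were positive and of the netrin receptors 2 of 5. The ligands had a median of 0.036 over 29 genes and the receptors one of 0.078 over 29. Among the 79 partners 0 had an adjusted p under 0.05 and 1 an unadjusted one, Abl1, a kinase that acts downstream of Robo receptors, at -0.32 (SE 0.12, edgeR unadjusted p = 0.0204).

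The members' direction differed among libraries and among the lanes that held them. As the median over 59 members of log2(CPM + 1) minus the saline IP mean, saline IP 1 stood at -0.18 and cocaine IP 1 at -0.34. In cocaine IP 1, 48 of 59 members lay below, while the other libraries had medians between 0.059 and 0.21. The same medians over all genes are not given here, so these shifts are not shown to be particular to the members. Among the cocaine libraries, 54 of 59 members had a higher mean in lane 4 than in lane 6 (91.5%, against 53.2% of all genes). The lane 6 cocaine libraries were cocaine IP 1, at -0.34, and cocaine IP 2, at 0.10. Saline IP 4 of the same lane stood at 0.065 and the lane 4 libraries at 0.13 to 0.21. The part of cocaine IP 1 in this count was not tested. For 12 members all lane 4 values were above both lane 6 values (20.3%, against 11.1% of all genes), and for 0 all were below (10.9% of all genes). With lane as a covariate the median log2 fold change was -0.21, beside 0.0091 for all genes, and 14 of 59 were positive, with 0 called. Without the 3 lane 4 libraries the median was -0.11, beside -0.015 for all genes, and 16 of 59 were positive, with 0 called. Lanes 4 and 7 each held a single treatment, so the lane-adjusted estimates rest on lane 6, with saline IP 4 against cocaine IP 1 and cocaine IP 2. Of these, cocaine IP 1 is the library at -0.34. Within lane 6 there is 1 saline library, so no lane gives a test of its own.

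Each saline IP library correlated best, in its deviations from the group mean, with the cocaine IP library of its own number (1, 2 or 4), and a fit with the number as a block used these 6 libraries. It called 0 of 58 members (smallest adjusted p 0.5602 in edgeR), with 23 positive and 5 at an unadjusted p under 0.05 (8.62%, against 6.65% of all genes), against 0 in the same 6 libraries unpaired. The 5 were Nrp1, Unc5c, Ntn1, Sema4d and Plxnd1, of which Plxnd1 had the smallest p, with a log2 fold change of -0.33 (SE 0.094, edgeR unadjusted p = 0.00309). Of the 59 members, 6 were higher after cocaine in all 3 pairs (10.2%, against 12.1% of all genes) and 15 lower (25.4%, against 15.6%).

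**Figure D4:**
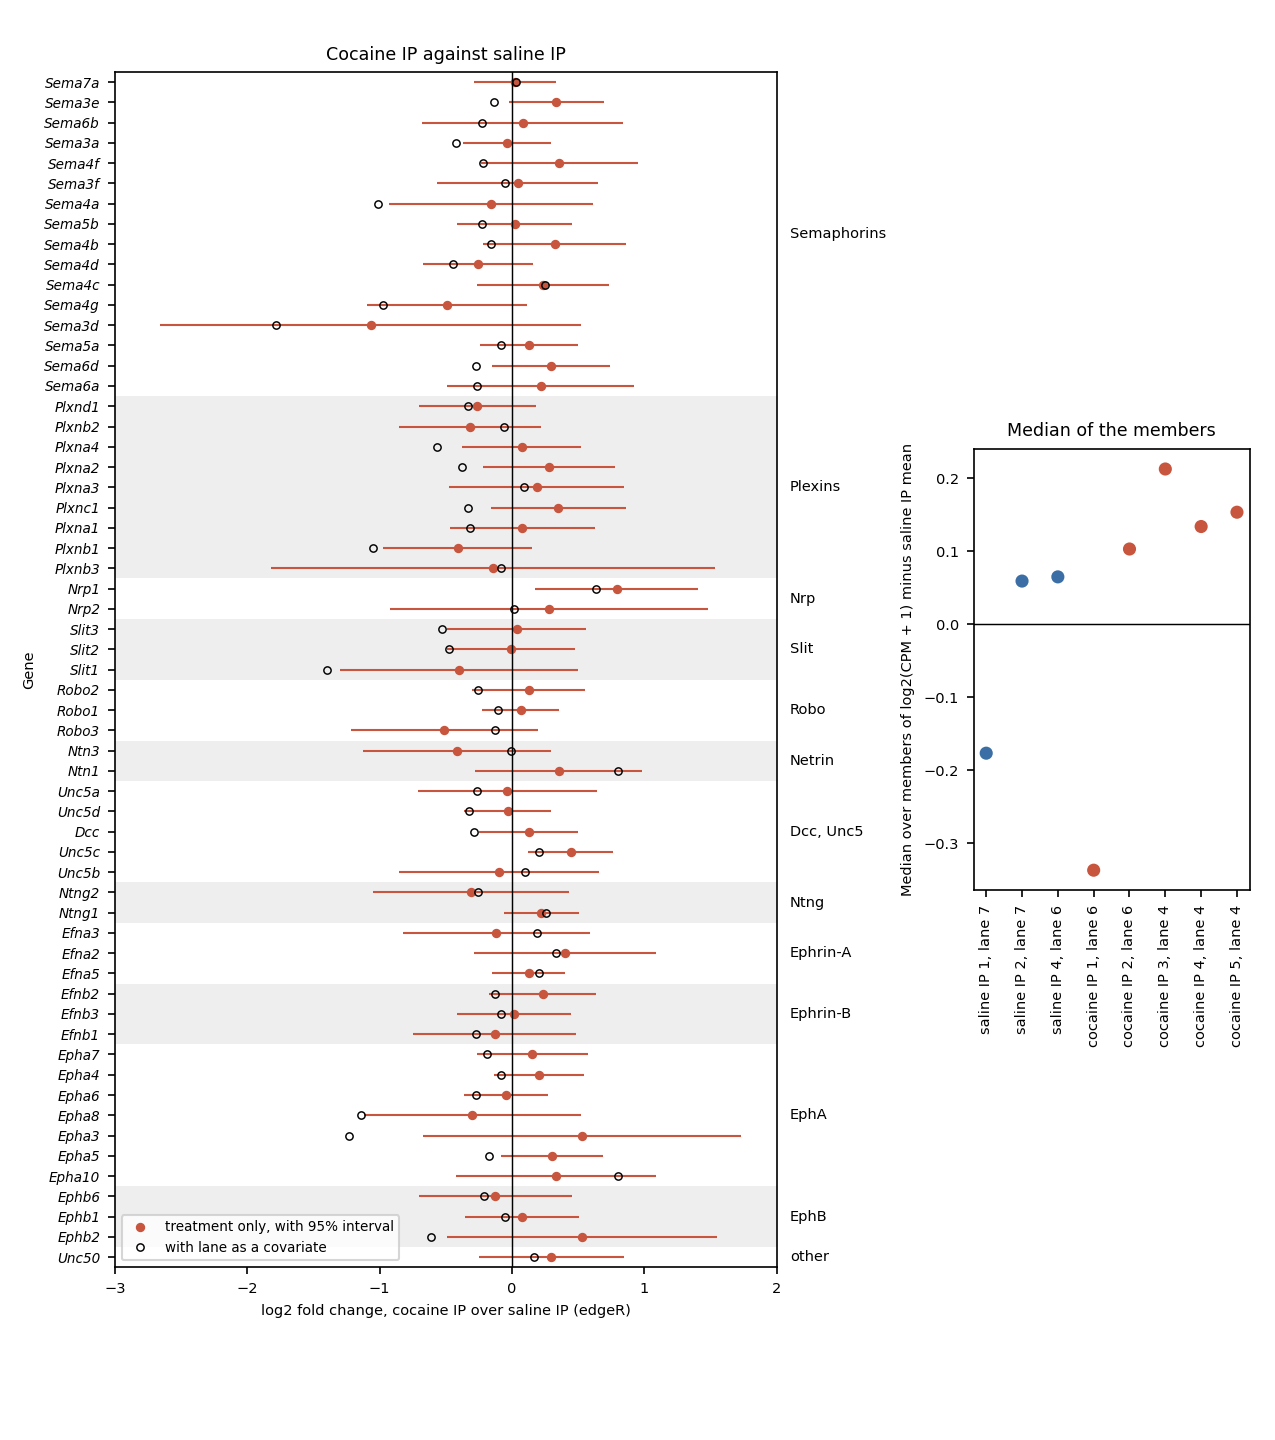
Left, log2 fold change of cocaine IP over saline IP for 59 members by role (edgeR; filled points with 95% intervals, 3 saline and 5 cocaine libraries) with the estimate when lane is a covariate (open circles). Right, the median over members of log2(CPM + 1) minus the saline IP mean for each IP library; saline IP 1 (-0.18) and cocaine IP 1 (-0.34) are below 0 and the other 6 above it.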

How the data were processed

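The 10 deposited files hold raw read counts per gene symbol, 1 library each, made by the authors from mm10 alignments; the submitters' processing notes name STAR 2.0.0e and HTSeq, the latter without a version. Groups and replicate numbers come from sample titles and lanes from sample descriptions. Special counters of HTSeq were left out of library sizes and tests. CPM were scaled by TMM (edgeR 4.0.16, R 4.3.3) over the 10 libraries, membership used CPM by library size, and a ratio is log2(CPM + 1) of an IP library minus that of the single reference. A gene was called when every IP library passed 2-fold. Cocaine was compared with saline by edgeR's quasi-likelihood test (two-sided, 8 IP libraries, filterByExpr, treatment only) with Benjamini-Hochberg adjustment at 0.05 over all genes. Positions and exon lengths are from GENCODE vM21 on GRCm38, the assembly of mm10, and all 74 symbols had one. Intervals of single libraries are exact 95% Poisson intervals and cover counting error only. The fits were tested on simulated counts. The lowest chi-square per degree of freedom between IP libraries of a group was 21.5, so none was a copy of another.

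Members and lists were chosen with earlier results of these data known. Every member with a mean of at least 1 CPM could be named. Sample values were given for those called, for the ends of each family's range and for the highest levels per length, and for cocaine against saline for the 6 members with the smallest p. Partners were named where called, and Abl1 after its value was seen. Protein sequences were not used here. Same-numbered IP libraries correlated in their deviations from the group means at 0.706, 0.619 and 0.313 over the 9616 genes averaging 5 CPM or more, and at 0.500, 0.337 and 0.0986 over all 13800 tested. Libraries of different numbers ranged from -0.595 to 0.435 (saline IP 2 with cocaine IP 3) over the first set, and saline IP 4 with cocaine IP 5 reached 0.0897 over the second. By the first set of values the samples were treated as paired by number in the replicate block fit and in the counts over pairs only. The main test of cocaine against saline was fitted with treatment only and did not allow for this pairing. What a number stands for is not stated in the labels. Alternatives were other scalings (library size, DESeq2 1.42.0 size factors), priors of 0.1 and 5 CPM, other level limits, a 1.5-fold limit, DESeq2, lane as a covariate, the replicate block and leaving out libraries. An edgeR fit of the IP libraries against each lone reference was also run. Its calls differed from those of the ratios and are not given, since 1 reference library has no spread of its own. Leaving out the number 1 libraries of both treatments was added after the data were seen.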

Additional observations from a re-analysis of the deposited data

Results flagged for a closer look

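In each of the 60 members the highest and lowest of the 5 cocaine IP values was set against the others by Dixon's test, whose 95% limit for 5 samples is 0.71 and which marks about 1 in 20 groups by chance. For 6 of the 60 a single library stood apart, 5 times cocaine IP 1. The share over all genes is not given here, so this count is no result about the members. The 5 are not independent, since 48 of 59 members lay below the saline IP mean in cocaine IP 1. Efnb3, the transmembrane ephrin with the highest level per length, measured 56.76 CPM in cocaine IP 1 and 87.7 to 99.3 in the other 4. Epha7 measured 73.57 CPM there against 124 to 149 in the others, and Sema3a, the secreted repellent, 39.85 against 57.6 to 65.9. Nrp1, the receptor of Sema3a, measured 5.208 CPM in cocaine IP 1 and 11.1 to 14.8 in the others, and Unc50, which is no guidance gene, 42.48 against 72.2 to 89.0. Cocaine IP 1 was the low library in all 5. Sema3d was highest in cocaine IP 5 at 0.8915 CPM, against 0.189 to 0.343 in the others, where 3 reads equal 0.0948 to 0.131 CPM. The part of library preparation or lane in these values was not tested.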

How the results depend on the processing

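Against the input, where 16 members were lower, the count was 7 with a prior of 5 CPM (6.23% of all genes). It was 8 of 37 among genes averaging 5 CPM or more (6.59% of all genes). With each saline IP library left out in turn it was 15 to 16 (11.8% to 12.3% of all genes). Sema4d was lost without saline IP 1, and Ntn1 and Sema4d were lost and Plxnc1 gained without saline IP 4. The members' median ratio of -0.39 was -0.55 with library size, -0.22 with a prior of 5 CPM and -0.16 with the 5 CPM limit. Of members higher there was 1 (Sema7a) with a 1.5-fold limit, where 10.6% of all genes were higher. Partners higher and lower were 7 and 15 of 79 with the 1.5-fold limit (10.6% and 16.7% of all genes). Partners higher ranged from 0 to 1 with a library left out (1.68% to 2.92% of all genes).

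Against the unbound RNA, where 10 members were lower, the count was 6 with a prior of 5 CPM (6.03% of all genes). It was 5 of 37 with the 5 CPM limit (6.29% of all genes), where the median was 0.12. Members higher numbered 1 with a prior of 0.1 CPM (4.74% of all genes) and 3 with the 1.5-fold limit (13.4%). With a library left out they numbered 0 to 6 (3.68% to 5.4% of all genes). Partners higher were 0 with library size (1.93% of all genes), DESeq2 size factors (2.66%) or a prior of 5 CPM (2.29%). They were 6 with the 1.5-fold limit (13.4% of all genes) and 1 to 3 with a library left out (3.68% to 5.4%). With groups weighted equally in the level limit, 62 members passed (Sema3c and Sema6c added) and 17 and 10 were lower (14.1% and 13% of all genes). The cause of these changes was not tested, except that the 5 CPM limit tests fewer genes and members and the equal weighting more.

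For cocaine against saline every alternative called 0 members and 0 genes with edgeR or DESeq2. The median fold change of 0.078 was -0.21 with lane as a covariate, where Sema3e was at -0.14 and Epha5 at -0.17. These lane-adjusted values rest on the libraries of lane 6 alone. The replicate block (numbers 1, 2 and 4) called 0 members, with Unc5c at 0.29 and Nrp1 at 0.53. It had 903 genes at an unadjusted p under 0.05, against 141 in the same 6 libraries unpaired, and a smallest adjusted p of 0.0599 over all genes. Without the number 1 libraries of both treatments 37 members were positive, as with all 8. The depth limits members near 1 CPM most, such as Ephb3, Sema3d and Plxnb3, and the 1 input and 1 unbound library give no spread of their own.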
